A study of Homo sapiens with 4 samples.

Results

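RIP-seq peaks that were called with both Flag-AKT1 E17K and Flag-AKT1 WT were compared between the plasmids. The cells were MDA-MB-231, a triple-negative breast cancer line with mesenchymal features, transfected with Flag-tagged AKT1 carrying the E17K mutation or the wild-type sequence. For each plasmid there was 1 anti-Flag immunoprecipitate (IP) library and 1 input library, 4 libraries in all, prepared with a kit that removes rRNA. Each condition had 1 library, so differences between the plasmids could not be checked against replicates, and everything given here is a description of these libraries.

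The members were chosen by the peak calls, which are themselves measured values: a peak was kept when it overlapped a peak of the other list by at least 1 bp on the same chromosome and strand label. This gave 44 of 4838 Flag-AKT1 E17K peaks (0.909%, 95% Wilson interval 0.678% to 1.22%) and 42 of 808 Flag-AKT1 WT peaks (5.20%, interval 3.87% to 6.95%). These shares also count peaks on chromosome strands where the other list had few or no peaks. Overlapping peaks were joined to 42 regions. Of these, 40 held 1 peak of each list and 2, in SON and COL6A1, held 2 Flag-AKT1 E17K peaks. The bounds were the same in both lists for 26 regions, and the overlaps were 200 to 2200 bp long. Flag-AKT1 was made from a plasmid in cells that also have their own AKT1, and the counts do not separate RNA held by AKT1 from RNA held by the beads or antibody. The lists give a control count for each peak without naming the control. Here it was read as the input library, the only other kind of sample in the labels, although their protocol also mentions control IgG, and every input value below rests on that reading.

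AKT1 is a serine/threonine kinase of the PI3K pathway. It binds membrane lipids through its pleckstrin homology domain, where the E17K mutation lies and widens lipid binding. In RIP, RNA that comes down with a protein is sequenced and set against the RNA of the whole lysate. Ribosomal RNA and the mRNAs of ribosomal proteins, histones, tubulin and chaperones are among the most abundant RNAs of dividing cells. In human cells the 18S and 28S rRNAs are cut from a long precursor, 45S, whose gene is repeated on the short arms of the acrocentric chromosomes, chromosome 21 among them.

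The 3 miRNA hairpins that lay within shared regions are shown because each region's reads cannot be assigned to the host transcript or the hairpin. Sequences are those of RefSeq for GRCh38.p14, 5′ to 3′ on the plus strand, with mature arms in capitals where the table lists them.
MIR6501, in SON, chr21:33550662-33550728: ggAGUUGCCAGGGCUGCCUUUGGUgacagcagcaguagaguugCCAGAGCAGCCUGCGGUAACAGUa
MIR3143, in the shared region at H2AC12, chr6:27147626-27147688, with no mature arm in the table: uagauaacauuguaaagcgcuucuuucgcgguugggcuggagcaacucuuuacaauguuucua
MIR7111, in RPL10A, chr6:35470508-35470579: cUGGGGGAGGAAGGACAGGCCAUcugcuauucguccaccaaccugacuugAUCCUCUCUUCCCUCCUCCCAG

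The shared regions lay on few chromosome strands. Either list had peaks on 37 chromosome strands, both had peaks on 8, and shared peaks lay on 5. The minus label of chromosome 21 held 24 regions and that of chromosome 6 held 15, which is 39 of the 42. The other 3 were PI4K2A on chromosome 10, MIR924HG on chromosome 18 and APP on the plus label of chromosome 21. On the plus label of chromosome 6 the lists had 13 and 12 peaks, of which 0 were shared. On chromosome 10, minus label, 520 Flag-AKT1 E17K peaks faced 1 Flag-AKT1 WT peak. For a gene on a strand where a list had no peak, that list gives no reads, so absence from the shared regions says nothing about its level.

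Coordinates are those of the peak lists. The submitters' processing notes name hg18, whereas the peaks fell on the genes of GRCh38.p14: 98.9% of Flag-AKT1 E17K peaks and 99.8% of Flag-AKT1 WT peaks lay in a RefSeq gene span of that build, as did all 44 and 42 shared peaks. Gene names rest on that match, and spans include introns. The strand label was opposite to the annotated strand of the gene in 22 of the 22 regions whose gene had a known strand. Over the whole lists this was so in 3113 of 3169 peaks (98.2%) and 649 of 654 peaks (99.2%). Among 20 mRNA regions with a known strand, 8 ended within 1000 bp of the 3′ end of the gene, and the median distance was 1402 bp.

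Shared peaks were deeper than the lists they came from. Their median IP count was 132 reads for Flag-AKT1 E17K (33 to 1131) and 130 for Flag-AKT1 WT (11 to 1349), compared to 39 and 25 over all peaks. Median input counts were 54.5 (13 to 628) and 106 (17 to 1371), compared to 18 and 27. Shared peaks were also wider, with medians of 490 and 600 bp compared to 400 and 410 bp. Depth was not particular to sharing. On the minus label of chromosome 6, unshared peaks held 378 to 446 IP reads with Flag-AKT1 E17K and 151 to 430 with Flag-AKT1 WT. Of all IP reads inside peaks, the shared ones held 2.28% with Flag-AKT1 E17K and 20.1% with Flag-AKT1 WT. Library totals are not given in the sources used here, so depth is known only inside peaks. Intervals below are 95% intervals and cover counting error only.

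Enrichment was expressed as the fold, IP reads over input reads of a peak. Without scaling, folds ran from 1.40 to 4.62 for Flag-AKT1 E17K and from 0.423 to 2.81 for Flag-AKT1 WT. IP reads exceeded input reads in 42 of 42 regions for Flag-AKT1 E17K and in 24 of 42 for Flag-AKT1 WT. The Flag-AKT1 E17K fold was the higher one in 41 of 42 regions, with a segment of RNA28SN2 (chr21:8216601-8217200) as the exception (0.966 times the Flag-AKT1 WT fold). That offset was general and depends on library size, which is unknown: the median fold of the shared peaks was 2.12 and 1.03, close to the medians of the whole lists, 2.18 and 0.976. Each fold was therefore divided by the median of its own shared peaks. This scaled fold is 1 for a typical shared peak, and the ratio of scaled folds, Flag-AKT1 E17K over Flag-AKT1 WT, shows only which regions departed from the others. A change common to all regions cannot be seen in it, and the scaling removes a factor of 2.05 between the plasmids.

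After scaling, the ratio lay between 1/1.5 and 1.5 in 37 of 42 regions, and the regions of 28S rRNA lay below 1. The 27 regions outside rRNA and LOC110467529 had a median ratio of 0.999 (0.735 to 2.08), 13 above 1 and 14 below. The 15 regions of rRNA and LOC110467529 had a median of 0.708 (0.471 to 1.40), 14 of them below 1. With reads summed over the group, the ratio was 0.758 (interval 0.662 to 0.867) for rRNA and LOC110467529 and 0.975 (0.932 to 1.02) for the others.

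**Figure D1:**
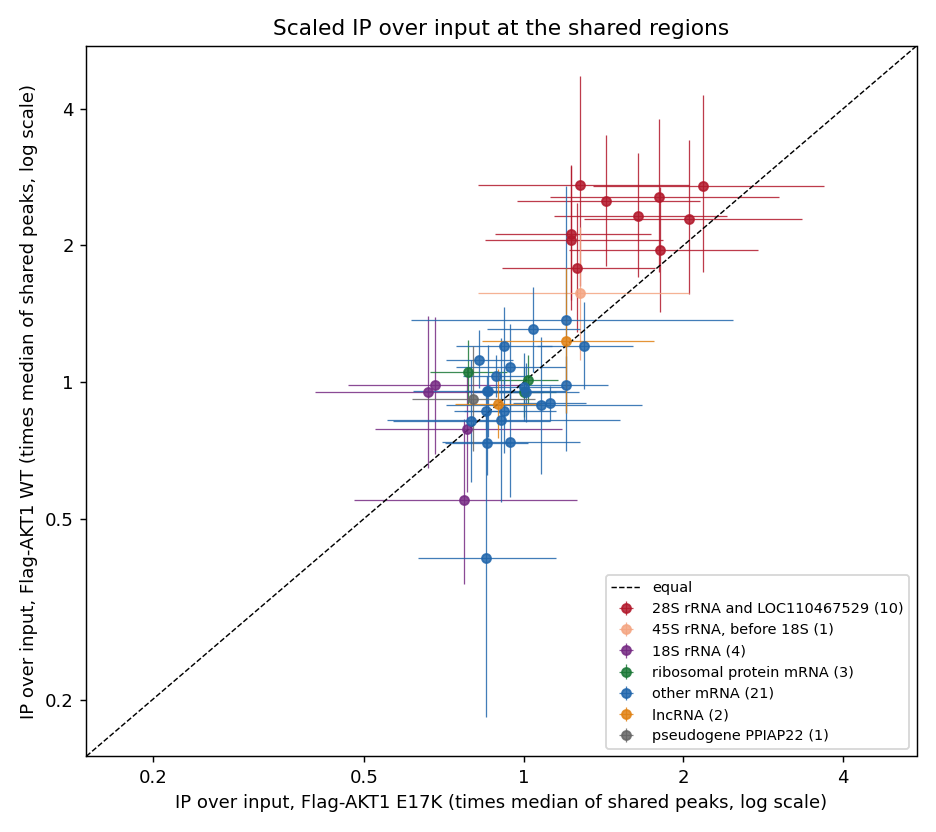
Scaled IP over input of the 42 shared regions, Flag-AKT1 E17K on the x axis and Flag-AKT1 WT on the y axis, both in multiples of the median of the shared peaks and on log scales. Points are regions coloured by kind of RNA, bars are 95% intervals of counting error and the dashed line marks equal values. The 10 regions of 28S rRNA and LOC110467529 all lie above the line, with medians of 1.53 and 2.30, while the mRNA regions scatter about it.

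28S rRNA, the RNA of the large ribosomal subunit that forms its catalytic core, had the highest summed fold of the RNA groups among the shared regions, with either plasmid. The 10 regions were 8 in RNA28SN1, RNA28SN2 and RNA28SN3 and 2 in LOC110467529, a locus beside RNA18SP5 that was put here for its place, since the gene table does not name it as rRNA. Unscaled folds were 2.61 to 4.62 for Flag-AKT1 E17K and 1.83 to 2.81 for Flag-AKT1 WT. Summed over the group, 1099 IP and 343 input reads of Flag-AKT1 E17K gave 3.20, and 1059 IP and 460 input reads of Flag-AKT1 WT gave 2.30. The summed 28S fold thus exceeded that of the mRNA regions, by 1.61 times (interval 1.42 to 1.84) with Flag-AKT1 E17K and by 2.32 times (2.07 to 2.61) with Flag-AKT1 WT. Relative to the other shared peaks, the Flag-AKT1 E17K value was the lower one, with a summed ratio of 0.678 (0.574 to 0.801) and all 10 regions below 1, although only 3 of the 10 had an interval that leaves out 1. Ratios were 0.572 to 0.929 in the 5 regions with the same bounds in both lists. In the rest, whose counts cover different lengths, they were 0.471 to 0.708. The 28S copies are nearly identical in sequence and reads can be placed on any of them, so the regions are not independent and the value of a single copy is uncertain. All 10 regions below 1 are thus not 10 separate observations. Summed intervals of rRNA groups treat every read as a separate count. They are too narrow if reads were counted at several copies, which is not known. The rRNA depletion in library preparation also acts on these RNAs. Its part in the 28S folds over mRNA with either plasmid, and in the difference between the plasmids, was not tested.

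The regions fell on 3 stretches of the 28S gene. Segment 1 started at base 1676 of RNA28SN3 and base 1456 of RNA28SN1, segment 2 at bases 2656 to 2714 of the 3 copies and segment 3 at bases 4056 to 4114. Summed ratios of segments 1, 2 and 3 were 0.632 (interval 0.450 to 0.889), 0.715 (0.528 to 0.969) and 0.680 (0.483 to 0.958). The intervals overlap, so no segment stood apart. RNA28SN2 had no shared region in segment 1, where Flag-AKT1 WT alone had a peak at bases 1714 to 1913 with 33 IP and 9 input reads, a fold of 3.67.

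In segment 1, RNA28SN1 (chr21:8442601-8443400) had 133 IP and 51 input reads with Flag-AKT1 E17K and 116 and 53 with Flag-AKT1 WT. Its ratio of 0.580 (interval 0.358 to 0.942) was among the 5 lowest. RNA28SN3 (chr21:8398601-8399400) had 132 and 38 reads with Flag-AKT1 E17K and 141 and 59 with Flag-AKT1 WT, a ratio of 0.708 (0.431 to 1.17). Peak widths differed, with 800 bp for Flag-AKT1 E17K against 600 bp for Flag-AKT1 WT in the former copy and 600 against 800 bp in the latter.

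In segment 2, RNA28SN2 (chr21:8216601-8217200) had the lowest ratio of all shared regions, 0.471 (interval 0.229 to 0.957). It rested on 76 IP and 28 input reads of Flag-AKT1 E17K and 59 and 21 of Flag-AKT1 WT, where the peak was 400 bp wide and not 600. RNA28SN1 had 139 and 52 reads with Flag-AKT1 E17K and 110 and 60 with Flag-AKT1 WT, a ratio of 0.710 (0.443 to 1.14). RNA28SN3, with the same bounds in both lists, had 123 and 32 reads with Flag-AKT1 E17K and 125 and 62 with Flag-AKT1 WT, and its ratio of 0.929 (0.552 to 1.58) was the nearest to 1 among the 28S regions. The intervals of the copies overlap. Since reads can be placed on any copy and the RNA28SN2 peaks differ in width, these intervals do not measure a difference between copies.

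In segment 3, RNA28SN2 (chr21:8218001-8218600) had the highest Flag-AKT1 E17K fold of all shared regions, 4.62, from 97 IP and 21 input reads. Flag-AKT1 WT had 81 and 29 reads there, a fold of 2.79 and a ratio of 0.806 (interval 0.408 to 1.61). RNA28SN3 (chr21:8401001-8402000) had 102 and 39 reads with Flag-AKT1 E17K and 98 and 46 with Flag-AKT1 WT, a ratio of 0.598 (0.348 to 1.03), and RNA28SN1 had 84 and 22 against 103 and 39, a ratio of 0.704 (0.374 to 1.35). In both of these the Flag-AKT1 WT peak was 1000 bp wide and the Flag-AKT1 E17K peak 600 and 400 bp, so that the counts cover different lengths.

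LOC110467529 gave similar values to the 28S copies. Its first region (chr21:8259801-8260400) had 109 IP and 36 input reads with Flag-AKT1 E17K and 134 and 52 with Flag-AKT1 WT, a ratio of 0.572 (interval 0.340 to 0.971) with the same bounds in both lists. Its second region (chr21:8260801-8261200) had 104 and 24 reads with Flag-AKT1 E17K and 92 and 39 with Flag-AKT1 WT, a ratio of 0.895 (0.483 to 1.68). The second region runs past the annotated end of the locus.

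18S rRNA, the RNA of the small ribosomal subunit, was not enriched in the way 28S was. Folds over the 4 regions were 1.40 to 1.66 with Flag-AKT1 E17K and 0.567 to 1.01 with Flag-AKT1 WT, below those of every 28S region. Within each list the summed fold of 28S exceeded that of 18S by 2.09 times (interval 1.64 to 2.67) and 2.74 times (2.23 to 3.38). Against the mRNA regions, 18S stood at 0.771 (0.623 to 0.956) and 0.847 (0.709 to 1.01). The summed ratio between the plasmids was 0.888 (0.674 to 1.17), an interval that includes 1.

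All 18S regions lay between bases 336 and 935 of the gene. RNA18SN2 had 72 IP and 50 input reads with Flag-AKT1 E17K and 71 and 70 with Flag-AKT1 WT, a ratio of 0.692 (interval 0.412 to 1.16). RNA18SN3 had 68 and 41 against 75 and 92 reads, a ratio of 0.991 (0.588 to 1.67). RNA18SN1 had 49 and 30 against 38 and 67 reads, and its ratio of 1.40 (0.735 to 2.69) was the only one above 1 among the rRNA regions. The pseudogene RNA18SP5 had 42 and 30 against 56 and 57 reads, a ratio of 0.694 (0.367 to 1.32). Counts were low in all 4 and each interval includes 1.

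Other stretches of 18S had peaks in a single list with higher folds than these. Near its 3′ part, RNA18SP5 had a Flag-AKT1 WT peak at bases 1160 to 1759 with 53 IP and 17 input reads, a fold of 3.12. RNA18SN2 had a Flag-AKT1 WT peak at bases 1371 to 1570 with a fold of 2.23, and RNA18SN3 a Flag-AKT1 E17K peak at bases 1536 to 1735 with a fold of 2.30. The low 18S folds above therefore describe the shared stretch and not the whole gene.

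The region in RNA45SN1 (chr21:8434001-8434600) covered bases 780 to 1379 of the precursor, ahead of 18S. It had 76 IP and 28 input reads with Flag-AKT1 E17K and 97 and 60 with Flag-AKT1 WT, folds of 2.71 and 1.62 and a ratio of 0.818 (interval 0.462 to 1.46). This region also marks the edge of the membership rule. The next Flag-AKT1 E17K peak, chr21:8434601-8435400 with 89 IP and 24 input reads, touches the Flag-AKT1 WT peak without overlapping it and was left out. The next nearest miss, a Flag-AKT1 WT peak in COL6A1 (29 IP and 25 input reads), lay 200 bp away. Taking the largest overlap of each region, the shortest, 200 bp, were those of RNA18SP5 and RNA18SN1. In RNA18SN1 the 200 bp were the whole peak in both lists.

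**Figure D2:**
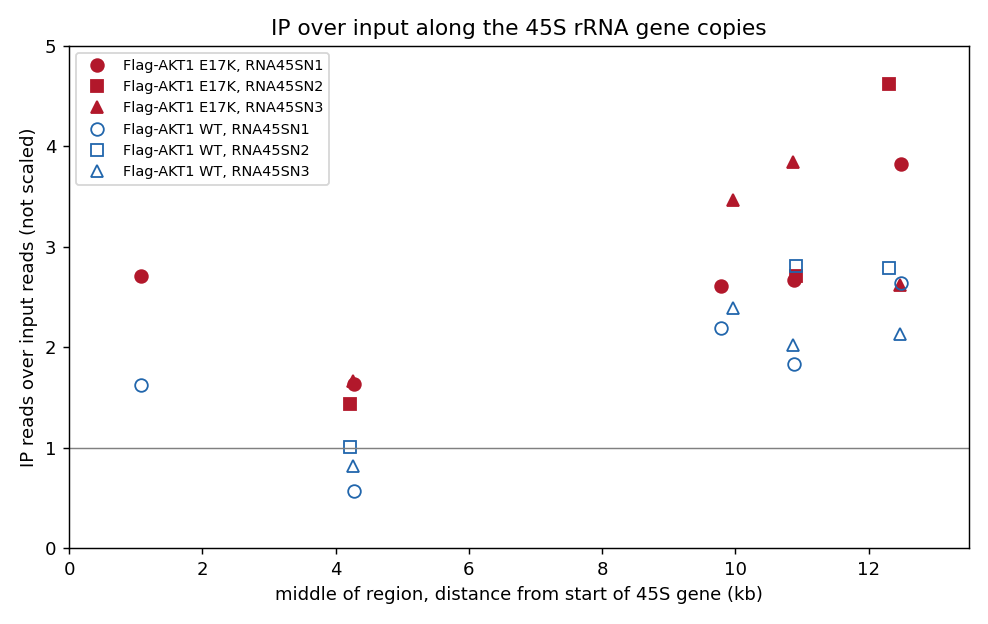
Unscaled IP over input reads (y axis) at the shared regions of the RNA45SN1, RNA45SN2 and RNA45SN3 gene copies, by distance of the middle of the region from the start of the 45S gene in kb (x axis). Filled red symbols are Flag-AKT1 E17K, open blue symbols Flag-AKT1 WT, symbol shape is the copy and the grey line is a fold of 1. The 18S regions near 4 kb have folds of 1.44 to 1.66 and 0.567 to 1.01, below all 28S regions with the same plasmid.

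Ribosomal protein mRNAs, which encode the protein part of the same particles, had 3 shared regions. Their summed ratio was 0.951 (interval 0.849 to 1.07). RPS18 (chr6:33276391-33276880) had 704 IP and 327 input reads with Flag-AKT1 E17K and 543 and 519 with Flag-AKT1 WT, a ratio of 1.0 (0.836 to 1.20). RPL10A (chr6:35470366-35470855), the region that also holds MIR7111, had 644 and 303 against 484 and 492 reads, a ratio of 1.05 (0.871 to 1.27). RPS12 (chr6:132816951-132817195) had 387 and 232 against 309 and 285 reads, a ratio of 0.750 (0.592 to 0.949). RPS12 was the only one of the 3 whose interval lay below 1, and that interval overlaps those of RPS18 and RPL10A.

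Histone genes had 3 shared regions, grouped here after their values were seen. H2BC5, an H2B gene (chr6:26158406-26158895), had 519 IP and 297 input reads with Flag-AKT1 E17K and 403 and 348 with Flag-AKT1 WT, a ratio of 0.735 (interval 0.597 to 0.905). H2AC12, an H2A gene, whose region (chr6:27147471-27147715) also holds MIR3143, had 314 and 142 against 205 and 152 reads, a ratio of 0.799 (0.592 to 1.08). H3C1, an H3 gene (chr6:26020716-26020960), had 348 and 126 against 190 and 153 reads, a ratio of 1.08 (0.798 to 1.47). The sum of the 3 gave 0.833 (0.720 to 0.965), and H3C1 lay on the other side of 1 from H2BC5 and H2AC12. Most histone mRNAs lack a poly(A) tail, and the libraries were made by rRNA removal.

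HSP90AB1, which encodes the constitutive HSP90 chaperone for which AKT is a known client, held 4 regions, and they differed among themselves. Region 3 (chr6:44251411-44252635) had 531 IP and 224 input reads with Flag-AKT1 E17K and 966 and 1043 with Flag-AKT1 WT. Its ratio of 1.25 (interval 1.04 to 1.5) was the only one among 42 whose interval lay above 1, but the peak was 490 bp wide in the former list and 1225 bp in the latter. Region 4, with 542 and 288 against 729 and 684 reads, gave 0.860 (0.718 to 1.03). Regions 1 and 2, with the same bounds in both lists, gave 0.764 (0.574 to 1.02) and 1.16 (0.907 to 1.48). Summed over the gene the ratio was 1.01 (0.909 to 1.12).

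TUBB, which encodes a beta tubulin of microtubules, had almost equal scaled folds in regions of high depth. The first region (chr6:30723246-30724225) had 1131 IP and 628 input reads with Flag-AKT1 E17K and 881 and 987 with Flag-AKT1 WT, a ratio of 0.983 (interval 0.858 to 1.13). The second had 423 and 199 against 276 and 274 reads, a ratio of 1.03 (0.805 to 1.31). HMGA1, which encodes an architectural protein of chromatin, had the most reads of all shared regions (chr6:34244876-34246345). Its 1112 IP and 614 input reads with Flag-AKT1 E17K and 1349 and 1371 with Flag-AKT1 WT gave 0.897 (0.791 to 1.02). The HMGA1 peak was 980 bp wide with Flag-AKT1 E17K and 1470 bp with Flag-AKT1 WT, so its counts cover different lengths. By counting error alone, the intervals of TUBB and HMGA1 leave out a 1.5-fold departure from the other shared regions.

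SON, which encodes a splicing cofactor of nuclear speckles, held 4 regions with a summed ratio of 1.07 (interval 0.930 to 1.24). Region 3 (chr21:33552801-33555400) had 459 IP and 180 input reads with Flag-AKT1 E17K and 405 and 398 with Flag-AKT1 WT, a ratio of 1.22 (0.973 to 1.53). Region 1, which holds MIR6501, had 237 and 111 against 351 and 358 reads, a ratio of 1.06 (0.804 to 1.40). Regions 2 and 4 gave 0.877 and 0.966. SRSF3, which encodes a splicing factor, had a ratio of 1.06 (0.782 to 1.45).

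Of the remaining protein-coding genes, PI4K2A, a phosphatidylinositol 4-kinase that makes a precursor of the lipids AKT1 binds, had the highest ratio. It had 128 IP and 71 input reads with Flag-AKT1 E17K and 11 and 26 with Flag-AKT1 WT, folds of 1.80 and 0.423. Its ratio of 2.08 had an interval of 0.920 to 4.91. The Flag-AKT1 E17K peak was 2585 bp wide and the Flag-AKT1 WT peak 705 bp, they overlapped by 470 bp, and its 11 reads were the lowest IP count of any shared peak. This value therefore compares largely different stretches of the gene at low depth.

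SOD1, which encodes superoxide dismutase, had 138 IP and 69 input reads with Flag-AKT1 E17K and 93 and 122 with Flag-AKT1 WT, a ratio of 1.28 (interval 0.845 to 1.94). DYRK1A, which encodes a protein kinase, had 78 and 34 against 67 and 73 reads, a ratio of 1.22 (0.701 to 2.13). APP, which encodes the amyloid precursor protein, had 33 and 13 against 24 and 17 reads, a ratio of 0.876 (0.327 to 2.36) that leaves room for a difference in either direction. ETS2, which encodes a transcription factor, stood at 1.10 and COL6A1, which encodes a chain of collagen VI, at 0.897. None of these 5 had an interval that leaves out 1.

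SNHG32 and MIR924HG were the 2 lncRNA genes with shared regions, and neither differed between the plasmids beyond counting error. SNHG32, a host gene of small nucleolar RNAs (chr6:31839466-31839710), had 326 IP and 172 input reads with Flag-AKT1 E17K and 257 and 278 with Flag-AKT1 WT, a ratio of 0.999 (interval 0.771 to 1.29). MIR924HG, a miRNA host gene (chr18:39334891-39335520), had 107 and 42 against 71 and 56 reads, a ratio of 0.979 (0.576 to 1.67). The latter region also overlaps RPL7AP66, a ribosomal protein pseudogene, whose reads cannot be told apart from it. Summed, the lncRNA ratio was 1.0 (0.798 to 1.26). PPIAP22, a cyclophilin A pseudogene whose reads may come from other copies, stood at 0.872 (0.595 to 1.28). SVIL-AS1 and AKT1 were not among the shared regions, which is no result about either gene. On chromosome 10, where SVIL-AS1 lies, the only Flag-AKT1 WT peak was that in PI4K2A. On chromosome 14, where AKT1 lies, neither strand label had peaks of both lists.

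**Figure D3:**
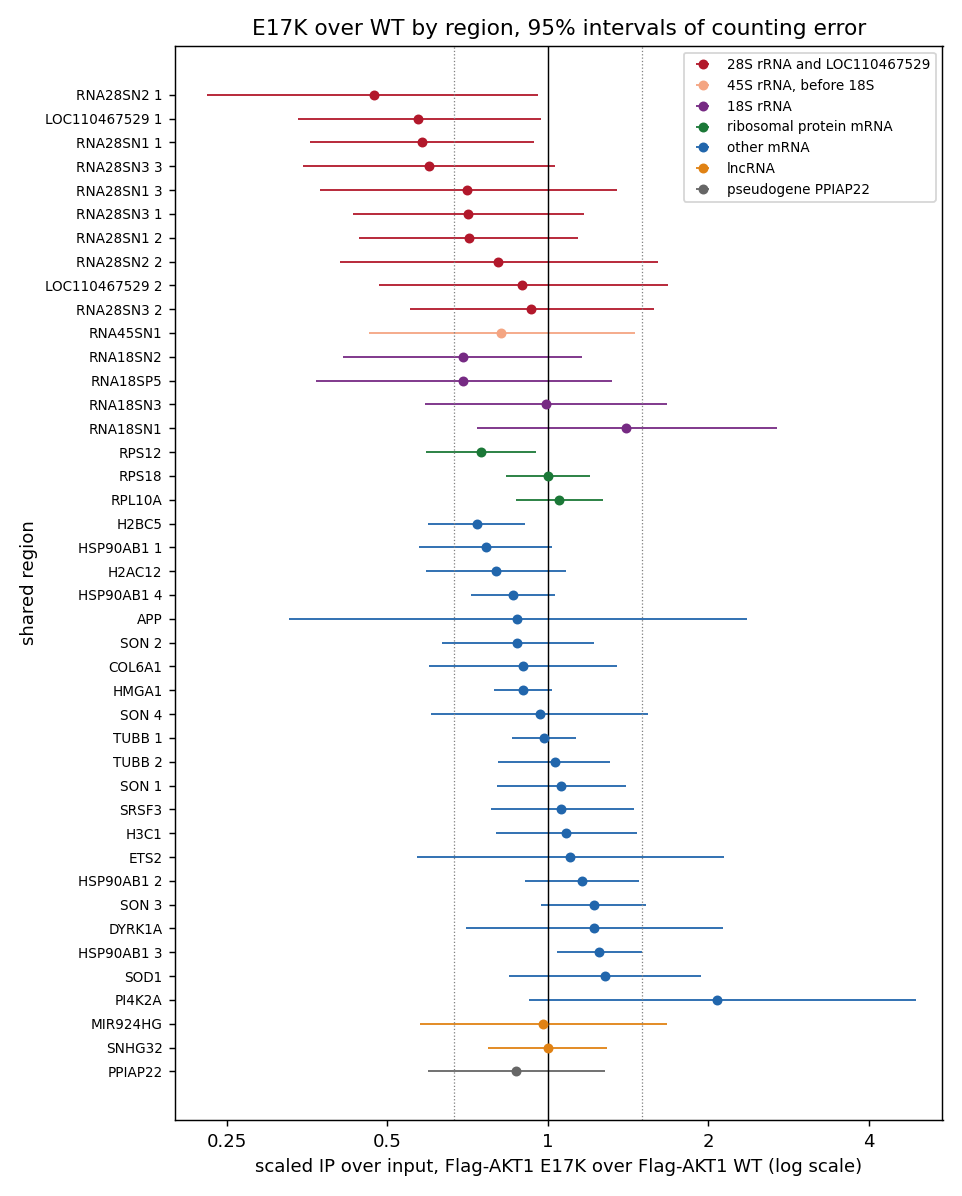
Ratio of scaled folds, Flag-AKT1 E17K over Flag-AKT1 WT (x axis, log scale), for each of the 42 shared regions (y axis), coloured by kind of RNA. Bars are 95% intervals of counting error, the solid line is 1 and the dotted lines are 1.5 and 1/1.5. The 10 regions of 28S rRNA and LOC110467529 at the top all lie to the left of 1, and PI4K2A, at 2.08, lies alone beyond the right dotted line with an interval that includes 1.

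At a fold of 1.5 after scaling, 1 of 42 regions (2.38%) was higher with Flag-AKT1 E17K, namely PI4K2A. At least 1.5 times lower were 4 regions (9.52%), the segments of RNA28SN2, LOC110467529, RNA28SN1 and RNA28SN3 with ratios of 0.471, 0.572, 0.580 and 0.598. PI4K2A was no longer included when a reciprocal overlap of 0.5 was required, and the count of lower regions was 9 with folds divided by the median of the whole list and 1 among regions with the same bounds. By interval, 1 region (2.38%) lay above 1, HSP90AB1, and 5 (11.9%) below, RNA28SN2, LOC110467529, RNA28SN1, H2BC5 and RPS12. These 42 regions are their own background, and no threshold here was adjusted for the number compared.

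Input libraries were compared with each other in the same way, as reads per kb of peak divided by the median over the shared regions (109 and 164 reads per kb). The regions formed separate clouds by chromosome. Those on chromosome 6 had 457 to 947 input reads per kb with Flag-AKT1 E17K and 620 to 1424 with Flag-AKT1 WT, while the chromosome 21 regions on the minus label outside rRNA had 42.5 to 150 and 91.2 to 204. Within the 15 chromosome 6 regions, Pearson's r of log2 input reads per kb was 0.733 and Spearman's rho 0.879. Among the 9 others just named they were 0.915 and 0.837. Genes with more input reads in the Flag-AKT1 E17K transfection were thus mostly those with more in the Flag-AKT1 WT transfection. These points share libraries and mostly the same peak bounds. For scaled folds r was 0.335 (rho 0.229) and 0.272 (rho 0.351) in the same groups. Among the 15 regions of rRNA and LOC110467529, r was 0.853 (rho 0.733) for scaled folds and 0.833 (rho 0.727) for input reads per kb. For IP reads per kb it was 0.375 (rho 0.399) there, compared to 0.697 and 0.949 in the chromosome 6 and chromosome 21 groups. The rRNA value for scaled folds pools separate clusters. With Flag-AKT1 E17K and Flag-AKT1 WT, 18S lay at 0.661 to 0.783 and 0.550 to 0.983. The 28S regions, with LOC110467529, lay at 1.23 to 2.18 and 1.78 to 2.72.

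The scaled input ratio was at least 1.5 in 4 regions (9.52%) and at most 1/1.5 in 0 (0%). Those 4 were APP at 2.31, segment 3 of RNA28SN3 and RNA28SN1, both at 2.13, and RNA18SP5 at 1.59. In all 4 the Flag-AKT1 WT peak was the wider one, as it was in 13 regions altogether, so that reads per kb were taken over different stretches. Among the 26 regions with the same bounds the input ratio ran from 0.676 in RNA18SN1 to 1.41 in H2AC12. The scaled IP ratio was at least 1.5 in 4 regions (9.52%), PI4K2A at 2.70, APP at 2.34, segment 3 of RNA28SN1 at 1.74 and H3C1 at 1.56, and at most 1/1.5 in 0 (0%).

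IP and input ratios were also set side by side. Each kind of ratio was scaled by its own medians, so an IP ratio over its input ratio does not give the ratio of scaled folds. The 28S regions had a median IP ratio of 0.992 (0.693 to 1.74) and a median input ratio of 1.19 (0.779 to 2.13), compared to 1.10 and 0.961 over the regions outside rRNA and LOC110467529. The 28S medians include peaks of unlike width. In the 5 of these regions with the same bounds the input ratio ran from 0.779 to 1.31 and the IP ratio from 0.693 to 1.08. These IP ratios all lay below 1.10, and the input ratios lay on both sides of 0.961. With 1 library of each kind, which library the lower 28S ratio came from cannot be told apart here. H2BC5 had an IP ratio of 1.10 and an input ratio of 1.29, and RPS12 had 1.07 and 1.23. In H3C1 both were raised, 1.56 and 1.24, while the ratio of scaled folds was 1.08. SOD1 had 1.26 and 0.854. In PI4K2A the IP ratio was 2.70 and the input ratio 1.12.

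**Figure D4:**
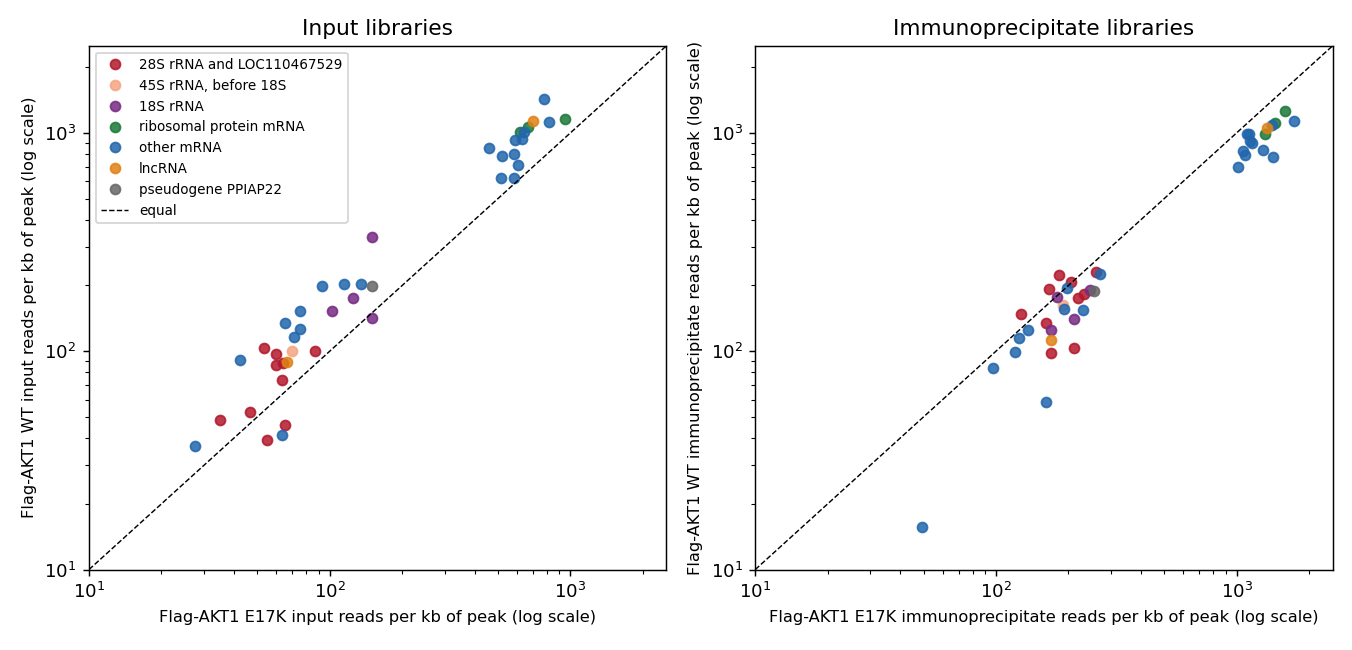
Reads per kb of peak in the 42 shared regions, Flag-AKT1 E17K on the x axis and Flag-AKT1 WT on the y axis, for the input libraries (left) and the immunoprecipitates (right), not scaled and on log scales. The dashed line marks equal values. In each panel the chromosome 6 regions form the upper cloud, for example at 457 to 947 input reads per kb with Flag-AKT1 E17K, and PI4K2A is the lowest point of the right panel at 49.5 and 15.6.

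Within their own lists the shared peaks were placed as follows, with a fold of 1.5 over or under the list's median as the measure. In the Flag-AKT1 E17K list 14.9% of all peaks were at least 1.5 times over the median, compared to 5 of 44 shared peaks, and 6.74% were as far under it, compared to 2 of 44. In the Flag-AKT1 WT list 14.6% were over, compared to 11 of 42 shared peaks, and 10.1% were under, compared to 2 of 42. The shares of Flag-AKT1 E17K members were close to their background. The 5 members over the median by that measure all lay in 28S genes or LOC110467529, with folds of 3.47 to 4.62. Scaled on the shared peaks, 11 regions of rRNA and LOC110467529 reached 1.5 with Flag-AKT1 WT.

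Genes of the AKT pathway and of the cell type gave no shared region. Of 27 AKT pathway genes, 0 had a Flag-AKT1 WT peak, so none could be shared. Of 8 markers of mesenchymal breast cancer cells, 6 had a Flag-AKT1 E17K peak (VIM, CD44, CAV1, CAV2, AXL and EGFR) and 0 had a Flag-AKT1 WT peak. Of 7 markers of luminal breast cells, 0 had a peak in either list. Since whole chromosome strands held no peak in a list, these counts are given as they are and are no check of the cell type.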

How the data were processed

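RIP-seq was analysed from 1 list of peaks for each plasmid. The authors deposited whole-number counts of immunoprecipitate and control reads in every peak, without normalization. The submitters' processing notes name Bowtie2 2.2.8 and hg18. The peak caller, its filters and the library totals are not given in the sources used here. Log odds scores, p-values and per-kilobase values of the lists were not used.

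Peaks overlapping by at least 1 bp on the same chromosome and strand label were joined to regions and their reads summed. Folds were calculated as immunoprecipitate over input reads, with input counts under 3 set to 3, and divided by the median fold of the list's shared peaks. Ratios between plasmids have exact conditional 95% intervals of the odds ratio, and shares have Wilson intervals. PCR copies are not independent molecules, so both cover counting error only. No test was made between plasmids, since each condition had 1 library. The interval calculation was tested on simulated independent counts, and the overlap calculation on copied and moved peaks. The simulation held no reads shared between gene copies, no PCR copies and no scaling by medians. Genes were matched by RefSeq spans of GRCh38.p14, without exons.

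Every gene with a shared region is named. Full values are given for the 10 regions with most reads, the 5 highest and 5 lowest ratios, and all regions of the rRNA, ribosomal protein, structured RNA and lncRNA lists. The members and lists were chosen with earlier results of these data known. The AKT pathway genes with a Flag-AKT1 E17K peak are not reported here. Alternatives were the overlap, strand, scaling, depth and width rules named in the closing section. Python 3.11.15, numpy 2.4.6, pandas 2.3.3, scipy 1.17.1 and matplotlib 3.10.9 were used.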

Additional observations from a re-analysis of the deposited data

How the results depend on the processing

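The number of shared peaks was 39 and 39 with a reciprocal overlap of 0.5, and 44 and 42 when strand labels were ignored or at least 20 reads were required in each peak. The region at least 1.5 times higher with Flag-AKT1 E17K, PI4K2A, was left out by the reciprocal overlap, by a minimum of 20 reads in each library and by keeping only regions with the same bounds, an alternative chosen after seeing the data, and the count was then 0. The regions at least 1.5 times lower numbered 9 with folds divided by the median of the whole list, and 1 with the same bounds. With the same bounds fewer regions were compared. The input ratio was at most 1/1.5 in 3 regions when reads were not divided by width, and in 5 regions when the median was taken outside rRNA genes. The median ratio of rRNA and LOC110467529 stayed between 0.650 and 0.852 and that of the other regions between 0.918 and 1.06 under the alternatives run. No region called at least 1.5 times higher or lower moved to the other side of 1. Several ratios near 1 did cross it, such as RPL10A (0.967 to 1.11) and the first TUBB region (0.903 to 1.04). Leaving out a replicate was not possible with 1 library per condition. No paired analysis was possible because each group had 1 library and no test was made. Depth limits single 28S and 18S regions, whose intervals are wide, and near-identical copies share their reads.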

Other observations

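Histone genes on chromosome 6 also had peaks in a single list. With Flag-AKT1 E17K, H2AC6, H4C3 and H4C11 had peaks on the minus label, with 378 IP and 217 input reads, 436 and 215, and 446 and 224. Flag-AKT1 WT had peaks there in H4C1, H2AC11 and H2BC15, with 153 and 122, 287 and 249, and 165 and 120 reads. On that label 3 Flag-AKT1 E17K and 8 Flag-AKT1 WT peaks in all were not shared. On the plus label, H1-2, H2AC17, H2BC4, H3C2, H4C2 and H4C8 had Flag-AKT1 E17K peaks, with 576 to 1156 IP reads. CLIC1, which encodes a chloride channel protein, had a Flag-AKT1 E17K and a Flag-AKT1 WT peak on the plus label of chromosome 6, separated by 3075 bp. The former held 539 IP and 295 input reads and the latter 107 and 105. APP had 8 further Flag-AKT1 E17K peaks on the plus label of chromosome 21 that met no Flag-AKT1 WT peak.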
